A study of Mus musculus with 15 samples.

Results

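A set of 10 genes that hold back growth or mark cellular stress were followed in mouse heart muscle cells made to express ATF4 or DDIT3. They were the tribbles Trib1, Trib2 and Trib3, the sestrins Sesn1, Sesn2 and Sesn3, the mTORC1 inhibitor Ddit4 and its paralogue Ddit4l, the translation repressor Eif4ebp1, and the stress protein gene Nupr1. They were picked by symbol, all 10 are in the deposited table of 23337 genes, and all 10 passed the filter that left 11814 genes for testing. The libraries were of FACS-purified cardiomyocytes, 5 per group, from Rosa-Cas9GFP mice at 4 weeks of age. On postnatal day 1 (P1) the ATF4 group had received AAV-ATF4-2A-GFP, the DDIT3 group AAV-DDIT3-2A-GFP and the control group AAV-GFP. AAV, an adeno-associated virus, carries a gene into the cells of a living animal. All 3 groups, controls included, therefore carried Cas9 and GFP at the Rosa locus and GFP in the vector. The promoter that drives the vectors is not given in the sources used here, and the labels do not say which libraries came from separate animals.

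ATF4 belongs to the integrated stress response, in which it activates transcription. Phosphorylation of eIF2 alpha lowers general protein synthesis and raises translation of ATF4, which turns on genes of amino acid supply, and DDIT3 (CHOP) is a C/EBP-related factor known as one of its targets. Several of the genes followed here are known brakes that stress places on growth. Sestrins and DDIT4 (REDD1) restrain mTORC1, the kinase complex that promotes protein synthesis, and 4E-BP1, the product of Eif4ebp1, holds the cap-binding protein eIF4E until mTORC1 phosphorylates it. Tribbles are pseudokinases that bring substrates such as C/EBP proteins to the ubiquitin ligase COP1. NUPR1 is a small chromatin protein induced by many stresses.

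Depth was 6217744 to 8317249 counts per library, and levels are given as CPM, the counts of a gene relative to the library's total scaled with TMM factors. The vector check followed the labels: Atf4 averaged 399.9 ± 79.5 CPM in ATF4 libraries against 71.1 ± 12.2 CPM in GFP libraries, and Ddit3 averaged 844 ± 180 CPM in DDIT3 libraries against 15.6 ± 1.28 CPM in GFP libraries (SD, n = 5 each). Ddit3 averaged 29.5 ± 7.62 CPM in ATF4 libraries, with a range of 21.7 to 38.5 CPM against 13.4 to 16.6 CPM in GFP libraries. Atf4 averaged 66.5 ± 22.9 CPM in DDIT3 libraries. Counts of Atf4 and Ddit3 do not separate vector from endogenous transcripts, and the share of each was not tested. ATF4 replicate 2 and DDIT3 replicate 2 stood farthest out on the second principal component, and Sesn1 in ATF4 against GFP was the only member whose call changed when both were left out. Cardiomyocyte markers summed to 93804 to 105461 CPM in ATF4 libraries, 116540 to 127808 CPM in DDIT3 libraries and 111715 to 141885 CPM in GFP libraries, and in ATF4 against GFP 5 of these 10 genes were lower and 0 higher. Endothelial markers summed to 1362 to 1953 CPM in ATF4 libraries, 585 to 1019 CPM in DDIT3 libraries and 581 to 1189 CPM in GFP libraries, with 11 of 12 genes higher and 0 lower in ATF4 against GFP and none of the 12 at 0. Of 10 pericyte and smooth muscle markers 5 were higher and 0 lower. Of 9 tested fibroblast markers 1 was higher and 1 lower, and Hba-a1 and Hba-a2 were at 0 in every library. Atrial markers summed to 607 to 1160 CPM in ATF4 libraries, 502 to 1468 CPM in DDIT3 libraries and 152 to 510 CPM in GFP libraries, with 1 gene higher and 1 lower of 5 tested in ATF4 against GFP and 1 higher in DDIT3 against GFP. Leukocyte markers summed to at most 28.0 CPM in any library and none was called. The part of these other cells in the results was not tested.

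Short stretches around ATF4-type motif matches are shown for Trib3 and Nupr1, because these genes stood among the strongest differences and, of the 8 members with a RefSeq promoter window, were the only 2 whose window held such a match. The motif searched was TGATGNAA, on both strands, a composite known from elements that ATF4 binds together with C/EBP proteins. Windows ran from 250 bases before to 50 bases after each RefSeq start (GRCm38.p6), and 8 of the 10 genes had one, with Trib1 and Eif4ebp1 without. The motif was found in 1304 of 32851 such mouse windows, or 3.97%. Capitals mark the match, which reads TGATGNAA on the opposite strand.
Trib3, chr2:152344028-152344057, minus strand: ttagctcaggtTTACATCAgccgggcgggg
Nupr1, chr7:126625562-126625591, minus strand: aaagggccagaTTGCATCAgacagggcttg
The Trib3 match lay 15 to 22 bases after the RefSeq start and 7 bases upstream of the GENCODE vM21 gene, in none of its 3 transcripts. The Nupr1 match lay at -110 to -103 from the RefSeq start, a position that is exonic in 2 and intronic in 2 of the 6 GENCODE transcripts. These letters were absent from the windows of Trib2, Sesn1, Sesn2, Sesn3, Ddit4 and Ddit4l, which says nothing about binding elsewhere. A second motif, TGACGTNA, was in 2.93% of mouse windows and in no window of these genes.

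In ATF4 against GFP libraries, 5 of the 10 genes were higher, 0 were lower and 5 did not pass the test. Trib3, Nupr1 and Sesn2 were 190, 387 and 18.97 times as high, Eif4ebp1 2.66 times and Sesn3 1.83 times. The test was edgeR's quasi-likelihood test with Benjamini-Hochberg adjustment over 11814 genes and a threshold of 0.05. Over all genes tested 32.2% were called in this comparison, 16.5% higher and 15.6% lower. The groups did not overlap for 4 of the 10 genes, against 21.4% of all genes. Nupr1 passed the filter on low counts through the ATF4 libraries alone, so that it had to differ, and without it 4 of 9 genes were called and 3 of 9 did not overlap. The median log2 fold change was 0.75 over the 10 genes, Nupr1 included, and 0.02 over all genes. In DDIT3 against GFP libraries 0 of the 10 genes were called, against 0.863% of all genes (0.525% higher, 0.339% lower). DESeq2 also called 0, and 1 gene (Ddit4l) had an unadjusted p under 0.05. In that comparison 0 of the 10 were without overlap, against 2.86% of all genes, and the median was 0.03 over the 10 genes and 0.00 over all genes. In ATF4 against DDIT3 libraries the same 5 genes were higher and 0 lower, where 33.8% of all genes were called (17.8% higher, 16% lower). The groups did not overlap for 4 of the 10, against 22.6% of all genes. The median was 0.59 over the 10 genes, Nupr1 included, and 0.00 over all genes. The filter fixed the call of Nupr1 here too, and without it 4 of 9 genes were called and 3 of 9 did not overlap. The 3 comparisons share libraries and are not independent of each other.

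**Figure D1:**
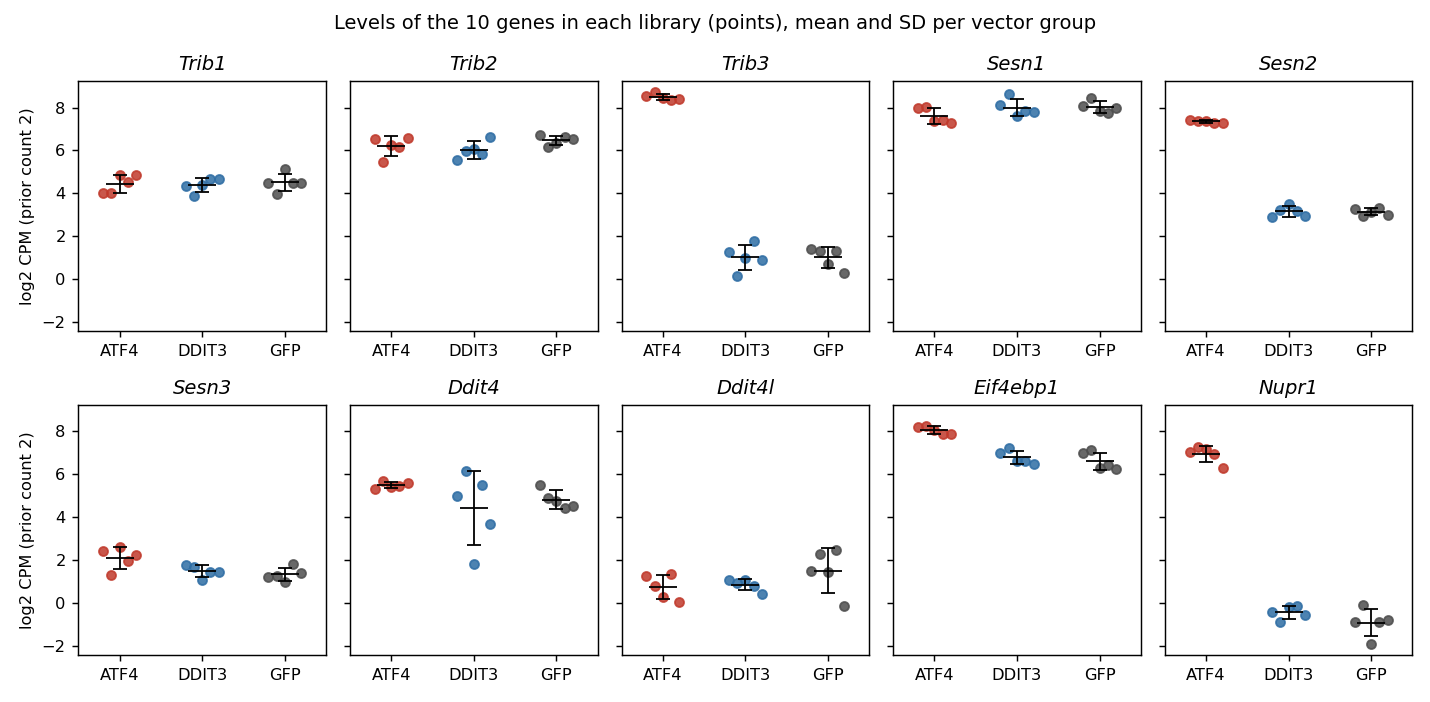
Log2 CPM (prior count 2) of the 10 genes in each library of the ATF4, DDIT3 and GFP groups, with points for libraries and bars for the mean ± SD (n = 5). Trib3, Sesn2, Eif4ebp1 and Nupr1 have every ATF4 library above every DDIT3 and GFP library, and the DDIT3 points of Ddit4 spread most widely.

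Among the tribbles, Trib3 alone differed by the test. Trib3, known as a target of ATF4 and of CHOP and reported to bind AKT, lies on chromosome 2, 152337422 to 152344032 on the minus strand (GRCm38/mm10 throughout). Trib3 had 368, 417, 346, 324 and 335 CPM in the 5 ATF4 libraries. It had 2.18, 0.832, 1.69, 3.12 and 1.62 CPM in the DDIT3 libraries and 2.41, 2.22, 1.38, 2.24 and 0.948 CPM in the GFP libraries. The ATF4 libraries lay close together and far above both other groups, which overlapped each other. The log2 fold change of Trib3 was 7.57 ± 0.23 (SE) in ATF4 against GFP (adjusted p = 2.06e-14, edgeR), rank 14 of all genes by p, and 7.55 ± 0.23 in ATF4 against DDIT3 (adjusted p = 2.33e-14). Between DDIT3 and GFP libraries the Trib3 difference was 0.02 ± 0.28 (95% interval -0.58 to 0.62, adjusted p = 0.996), from 74 reads in all DDIT3 libraries against 67 in all GFP libraries. The ratio of those reads, scaled for library size, was 1.01 with an exact counting interval of 0.717 to 1.43. In these bulk samples fewer expressing cells and less RNA per cell cannot be told apart.

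Trib1 and Trib2 did not pass the test in any comparison. Trib1 (chromosome 15, 59648350 to 59657099, plus strand), which is best known for driving C/EBP alpha to degradation, had 16.1, 15.8, 28.8, 22.6 and 28.8 CPM in ATF4 libraries. It had 19.9, 14.4, 20.7, 25.1 and 25.1 CPM in DDIT3 libraries and 22.4, 15.5, 34.5, 22.4 and 22.3 CPM in GFP libraries. The 3 groups covered nearly the same range, and replicate 2 was the lowest library in each. The Trib1 log2 fold change was -0.06 ± 0.22 in ATF4 against GFP (95% interval -0.51 to 0.40, adjusted p = 0.87, edgeR) and -0.15 ± 0.22 in DDIT3 against GFP (-0.61 to 0.31, adjusted p = 0.911).

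Trib2 (chromosome 12, 15791727 to 15816922, minus strand), a relative that also directs COP1 to C/EBP alpha, had 93.4, 43.7, 75.6, 70.5 and 96.6 CPM in ATF4 libraries. It had 46.8, 63.4, 66.5, 56.9 and 99.96 CPM in DDIT3 libraries and 104, 71.8, 81.3, 98.1 and 92.8 CPM in GFP libraries. The lowest libraries belonged to the ATF4 and DDIT3 groups, but all groups overlapped. The Trib2 log2 fold change was -0.24 ± 0.20 in ATF4 against GFP (95% interval -0.67 to 0.19, adjusted p = 0.399, edgeR) and -0.43 ± 0.20 in DDIT3 against GFP (-0.86 to 0.00, adjusted p = 0.52).

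Per kilobase of the deposited gene length, the make-up of the tribble transcripts turned over. Trib3 was 87.9 ± 3.31% of the summed tribble level in ATF4 libraries, 4.36 ± 2.22% in DDIT3 libraries and 3.25 ± 1.27% in GFP libraries (SD, n = 5 each). Trib2 was 9.21 ± 2.71%, 71.5 ± 7.01% and 76.1 ± 4.70% in the ATF4, DDIT3 and GFP groups. The sum itself was 198 ± 14.0 CPM per kb in ATF4 libraries, 22.0 ± 5.25 in DDIT3 libraries and 28.1 ± 3.61 in GFP libraries. Trib3 thus made up most of the tribble RNA in the ATF4 group, while Trib2 did in the DDIT3 and GFP groups.

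**Figure D2:**
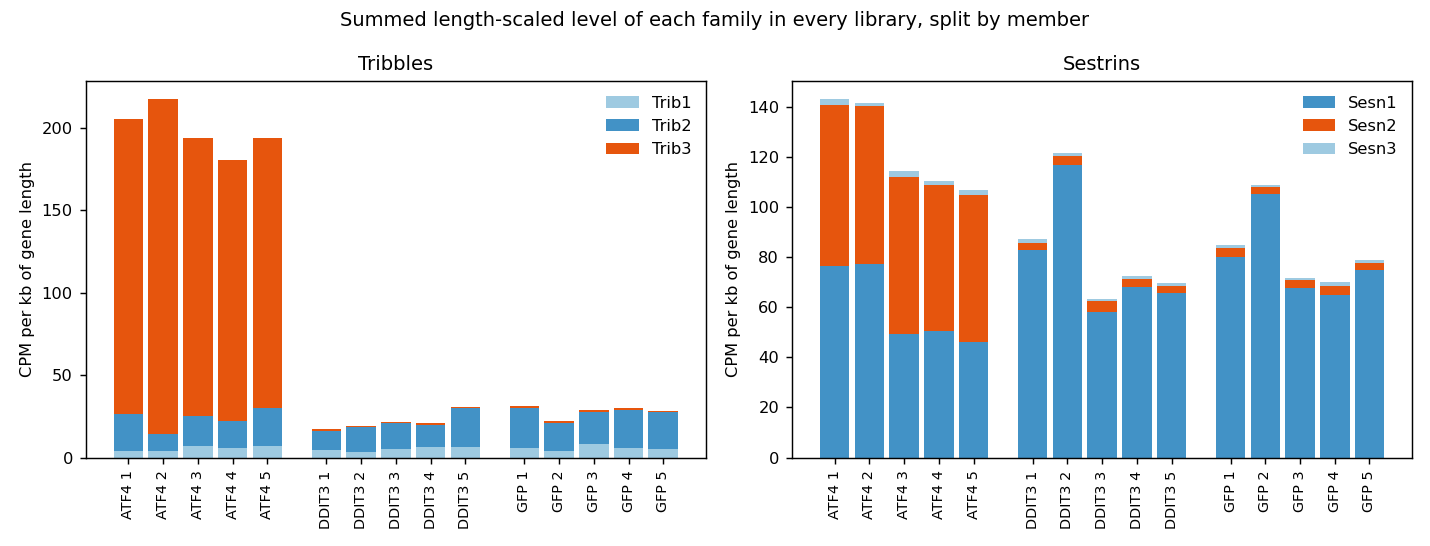
Stacked CPM per kb of the tribbles (Trib1, Trib2, Trib3) and the sestrins (Sesn1, Sesn2, Sesn3) in each library of the ATF4, DDIT3 and GFP groups. Trib3 takes up most of each ATF4 bar of the tribbles, and Sesn2 about as much as Sesn1 in the ATF4 bars of the sestrins, where Sesn1 fills nearly all of the DDIT3 and GFP bars.

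Among the sestrins, Sesn2 was higher in ATF4 libraries with almost no spread. Sesn2 (chromosome 4, 132492032 to 132510501, minus strand) encodes a protein that binds leucine and restrains mTORC1 through the GATOR2 complex. It had 171, 168, 166, 154 and 156 CPM in the ATF4 libraries. It had 7.26, 9.16, 11.2, 8.85 and 7.41 CPM in the DDIT3 libraries and 9.39, 7.56, 8.58, 9.74 and 7.59 CPM in the GFP libraries. No ATF4 library came near the other groups, whose values were interleaved. The Sesn2 log2 fold change was 4.25 ± 0.13 in ATF4 against GFP (adjusted p = 1.84e-14, edgeR), rank 10 of all genes by p, and 4.21 ± 0.13 in ATF4 against DDIT3 (adjusted p = 1.87e-14). Between DDIT3 and GFP libraries it was 0.03 ± 0.13 (95% interval -0.24 to 0.30, adjusted p = 0.974), the narrowest interval of any of the 10 genes there.

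Sesn1 did not pass the test in the main fit, which had no replicate block. Sesn1 (chromosome 10, 41809935 to 41908424, plus strand), a known p53 target, had 255, 258, 164, 168 and 154 CPM in ATF4 libraries. It had 276, 390.2, 194, 227 and 219 CPM in DDIT3 libraries and 268, 351, 226, 217 and 250.02 CPM in GFP libraries. Replicates 1 and 2 were the highest in every group, and at each replicate number the ATF4 library was the lowest of the 3. The Sesn1 log2 fold change was -0.39 ± 0.20 in ATF4 against GFP (95% interval -0.81 to 0.02, adjusted p = 0.138, edgeR) and -0.39 ± 0.20 in ATF4 against DDIT3 (adjusted p = 0.142). Same-numbered ATF4 and DDIT3 libraries deviated together from their group means, and a fit that takes this number as a block had Sesn1 lower in ATF4 against DDIT3, at -0.38 ± 0.09 (adjusted p = 0.00256). In ATF4 against GFP Sesn1 also passed in the 11 libraries read as male from sex-linked genes (-0.61, adjusted p = 0.0254, edgeR). It passed as well without ATF4 and DDIT3 replicates 2 (-0.50, adjusted p = 0.0300, edgeR), which both of these settings leave out. Over all 22 alternatives the adjusted p of Sesn1 ran from 0.00157 to 0.327 in ATF4 against GFP and from 0.00256 to 0.416 in ATF4 against DDIT3. DDIT3 and GFP libraries differed by -0.00 ± 0.20 (95% interval -0.42 to 0.41, adjusted p = 0.998).

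Sesn3 was low in all groups. Sesn3 (chromosome 9, 14275067 to 14333101, plus strand), known as a FOXO target, had 5.08, 2.20, 5.78, 3.55 and 4.44 CPM in ATF4 libraries. It had 3.15, 2.91, 1.81, 2.47 and 2.42 CPM in DDIT3 libraries and 2.01, 2.09, 1.68, 3.29 and 2.37 CPM in GFP libraries. ATF4 replicate 2 lay among the other groups and the other 4 ATF4 libraries lay above every GFP and DDIT3 library. The Sesn3 log2 fold change was 0.88 ± 0.27 in ATF4 against GFP (95% interval 0.30 to 1.45, adjusted p = 0.0201, edgeR) and 0.72 ± 0.27 in ATF4 against DDIT3 (adjusted p = 0.0445). The call against GFP was lost without ATF4 replicate 1 (adjusted p = 0.0529), ATF4 replicate 3 (0.0582) or GFP replicate 3 (0.0538), in a range of 0.00447 to 0.0582 over the alternatives. The call against DDIT3 was lost in 12 of 22 alternatives, where the adjusted p ran from 0.0105 to 0.119 over all 22. DDIT3 against GFP gave 0.15 ± 0.28 (95% interval -0.44 to 0.74, adjusted p = 0.939).

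Per kilobase, Sesn2 was 50.4 ± 5.19% of the summed sestrin level in ATF4 libraries, 4.25 ± 1.52% in DDIT3 libraries and 4.03 ± 0.983% in GFP libraries (SD, n = 5 each). Sesn1 was 47.9 ± 5.65%, 94.3 ± 1.53% and 94.6 ± 1.40% in the ATF4, DDIT3 and GFP groups. The sum was 123 ± 17.6 CPM per kb in ATF4 libraries, 82.8 ± 23.4 in DDIT3 libraries and 82.8 ± 15.7 in GFP libraries. Sesn1 and Sesn2 thus stood at about the same level per length in the ATF4 group, and Sesn1 far above Sesn2 in both other groups.

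Ddit4 (chromosome 10, 59949669 to 59951834, minus strand), whose product inhibits mTORC1 through the TSC complex, differed more within the DDIT3 group than between groups. Ddit4 had 39.3, 50.3, 42.0, 43.4 and 47.2 CPM in ATF4 libraries. It had 31.5, 71.3, 3.26, 44.2 and 12.5 CPM in DDIT3 libraries and 44.9, 29.6, 26.2, 21.1 and 22.9 CPM in GFP libraries. The coefficient of variation of Ddit4 was 9.76% in ATF4 libraries, 82.7% in DDIT3 libraries and 32.9% in GFP libraries. Within the DDIT3 group the highest library had 21.9 times the CPM of the lowest, on 27 to 514 reads. GFP replicate 1 was the only GFP library inside the ATF4 range. The Ddit4 log2 fold change was 0.62 ± 0.50 in ATF4 against GFP (95% interval -0.44 to 1.68, adjusted p = 0.369, edgeR) and 0.16 ± 0.50 in DDIT3 against GFP (-0.90 to 1.23, adjusted p = 0.966). Fitted with the ATF4 and GFP libraries alone, without the DDIT3 libraries in the estimate of spread, Ddit4 was higher in ATF4 libraries (0.61, adjusted p = 0.0207), and the authors' deposited table lists 0.60 with an adjusted p of 0.0109. The adjusted p of Ddit4 ran from 0.0207 to 0.715 over all 22 alternatives.

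Ddit4l (chromosome 3, 137621612 to 137628333, plus strand), which encodes REDD2, had 2.08, 1.47, 0.941, 2.27 and 0.762 CPM in ATF4 libraries. It had 1.82, 1.66, 1.81, 1.43 and 1.08 CPM in DDIT3 libraries and 2.55, 4.56, 2.45, 5.27 and 0.632 CPM in GFP libraries. GFP replicate 5 was the lowest of all 15 libraries, while the other 4 GFP libraries were above every ATF4 and DDIT3 library. That library is described as SMART-Seq3 and the other 14 as SMART-Seq2, and its part was not tested. The Ddit4l log2 fold change was -1.05 ± 0.42 in ATF4 against GFP (95% interval -1.94 to -0.17, adjusted p = 0.0628, edgeR) and -0.99 ± 0.41 in DDIT3 against GFP (-1.86 to -0.12, unadjusted p = 0.0278, adjusted p = 0.418). Without GFP replicate 5 the value in ATF4 against GFP was -1.31 (adjusted p = 0.00900), and without ATF4 replicate 4 it was -1.25 (adjusted p = 0.0472). With the replicate number as a block it was -0.98 (adjusted p = 0.0237), in a range of 0.00900 to 0.190 over the alternatives. The whole ATF4, DDIT3 and GFP groups held 55, 61 and 114 reads of Ddit4l.

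Eif4ebp1 (chromosome 8, 27260329 to 27276674, plus strand) had 289.6, 307, 269, 234 and 235 CPM in ATF4 libraries. It had 125, 149.5, 97.3, 98.2 and 87.8 CPM in DDIT3 libraries and 125, 138, 77.5, 85.5 and 75.4 CPM in GFP libraries. The lowest ATF4 library was above the highest library of both other groups, and replicates 2 and 1 were the highest in all 3 groups. The Eif4ebp1 log2 fold change was 1.41 ± 0.18 in ATF4 against GFP (adjusted p = 9.8e-06, edgeR) and 1.26 ± 0.18 in ATF4 against DDIT3 (adjusted p = 3.37e-05). DDIT3 against GFP gave 0.15 ± 0.18 (95% interval -0.22 to 0.53, adjusted p = 0.865).

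**Figure D3:**
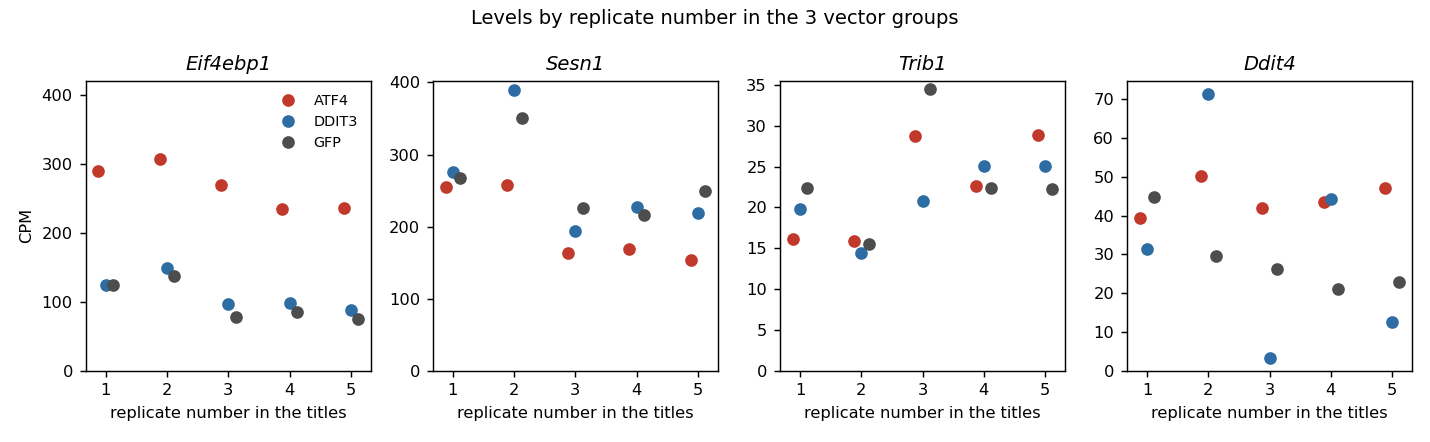
CPM of Eif4ebp1, Sesn1, Trib1 and Ddit4 by replicate number, with points for the libraries of the ATF4, DDIT3 and GFP groups. Replicates 1 and 2 are the highest of every group for Eif4ebp1 and Sesn1, replicate 2 is the lowest of every group for Trib1, and Ddit4 in DDIT3 libraries swings between 3.26 and 71.3 CPM.

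Nupr1 (chromosome 7, 126623249 to 126630861, minus strand) was the member with the largest fold change. Nupr1 had 131, 152, 145, 123 and 78.7 CPM in ATF4 libraries. It had 0.484, 0.277, 0.603, 0.651 and 0.404 CPM in DDIT3 libraries and 0.268, 0.652, 0, 0.263 and 0.316 CPM in GFP libraries. It was near the limit of detection in both groups without ATF4 vector, with 19 reads in all DDIT3 libraries and 11 in all GFP libraries against 4603 in all ATF4 libraries. Since its call was fixed by the filter, its level is a description. The ratio of summed reads, scaled for library size, was 404 in ATF4 against GFP (exact 95% counting interval 226 to 810), and the fitted log2 fold change was 8.59 ± 0.29 (adjusted p = 1.05e-13, edgeR). In ATF4 against DDIT3 the Nupr1 ratio was 255 (163 to 425) and the log2 fold change 7.96 ± 0.27 (adjusted p = 1.31e-13). For DDIT3 against GFP the ratio was 1.58 (0.715 to 3.68) and the log2 fold change 0.63 ± 0.55 (95% interval -0.52 to 1.79, adjusted p = 0.797).

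**Figure D4:**
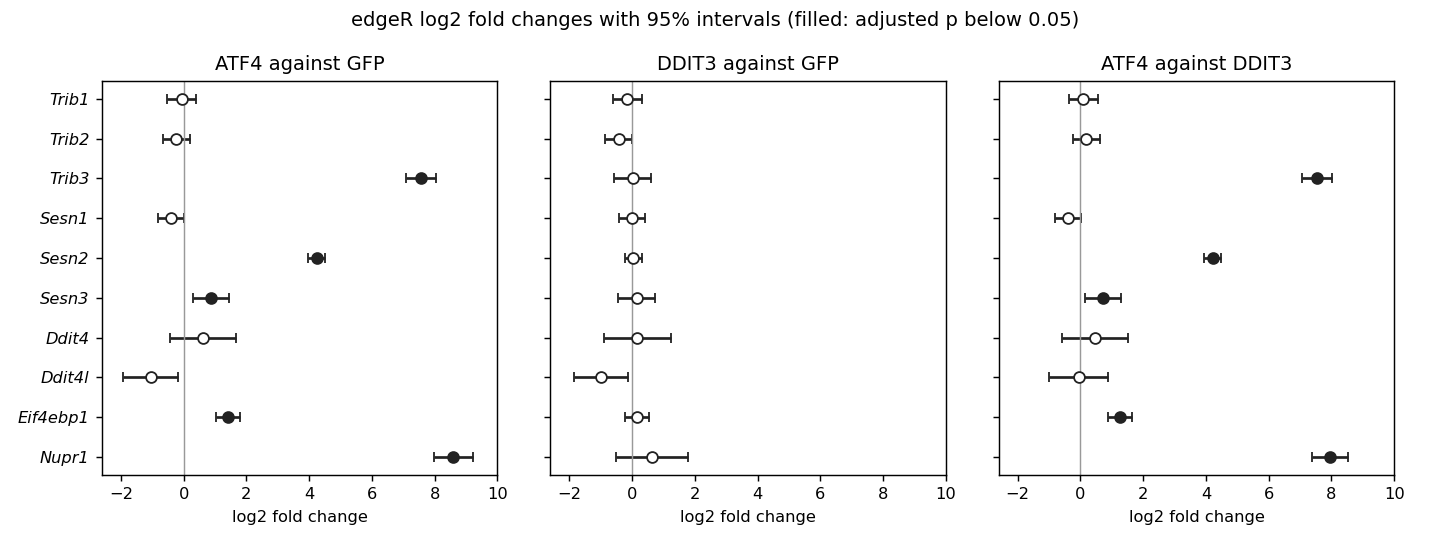
Log2 fold changes of the 10 genes with 95% intervals in ATF4 against GFP, DDIT3 against GFP and ATF4 against DDIT3, with filled points for an adjusted p under 0.05 (edgeR). Nupr1, Trib3, Sesn2, Eif4ebp1 and Sesn3 are filled in both comparisons of ATF4, no point of DDIT3 against GFP is filled, and the interval of Ddit4 spans from -0.44 to 1.68 in ATF4 against GFP.

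Per kilobase, Eif4ebp1 was among the top 2 of the 10 genes in every group, on either length tried. In ATF4 libraries Eif4ebp1 averaged 272 CPM per kb of the deposited length, Nupr1 201 and Trib3 175, with ranges that overlapped from each to the next, followed by Sesn2 at 61.4 and Sesn1 at 59.8, which overlapped too. In DDIT3 libraries Eif4ebp1 averaged 113.7 CPM per kb and Sesn1 78.3, while Trib3 averaged 0.92 and Nupr1 0.773. In GFP libraries the order opened with Eif4ebp1 at 102 CPM per kb and Sesn1 at 78.5, and closed with Trib3 at 0.897 and Nupr1 at 0.479. These ranks depend on gene length, since the GENCODE exons of Sesn3, Nupr1 and Eif4ebp1 add up to 15269, 2514 and 2196 bases, against deposited lengths of 2158, 626 and 981 bases. Per kilobase of GENCODE exons, a scale added after the data were seen, Trib3 came first in ATF4 libraries at 169 CPM per kb, then Eif4ebp1 at 122, Sesn1 at 50.2 and Nupr1 at 50.04. On that scale Sesn1 came before Eif4ebp1 in DDIT3 libraries, at 65.7 against 50.8 CPM per kb, and in GFP libraries, at 65.9 against 45.6 CPM per kb. The family shares moved less: Trib3 was 88.7% of the tribble sum and Sesn2 48.8% of the sestrin sum in ATF4 libraries, against 3.47% and 3.73% in GFP libraries.

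Genes other than the members were ranked by their likeness to each member across the 15 libraries, using Pearson's r of log2 CPM. The ranking is a description that carries the group differences, and the members themselves were left out of it. The nearest to Trib3 were Asns (r = 0.995) and Adm2 (0.994), and those nearest to Sesn2 were Slc7a3 (0.998) and Phgdh (0.998). Asns, the asparagine synthetase gene, averaged 1589 CPM in ATF4 libraries, 10.8 CPM in DDIT3 libraries and 7.63 CPM in GFP libraries. The nearest to Nupr1 were Phf10 (0.993) and Adm2 (0.993), and to Eif4ebp1 Lgals3bp (0.969) and Arhgdia (0.968). Ddit4 was nearest to Unkl (0.840) and Apaf1 (0.784), and Ddit4l to Spa17 (0.809) and Id2 (0.805). Trib1 was nearest to Slc35a4 (0.897) and Hdhd3 (0.858), Trib2 to Oasl1 (0.851) and Kifc3 (0.842), Sesn1 to Pcmtd2 (0.951) and Foxj2 (0.936), and Sesn3 to Ormdl3 (0.891) and Bola2 (0.891).

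The wider pathways around these brakes were followed in 7 lists holding 98 tested genes. In ATF4 against GFP 13 of the 98 were higher, 18 lower and 67 not called, so that 31.6% were called against the 32.2% of all genes given above, with a median log2 fold change of -0.03. That share is near the background. In DDIT3 against GFP 0 of 98 were called, against 0.863% of all genes, so that this share too is near the background. Of the 98, 5 had an unadjusted p under 0.05 (edgeR), and DESeq2 called 0 of 101. In ATF4 against DDIT3 16 were higher and 14 lower, or 30.6% called against 33.8% of all genes.

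**Figure D5:**
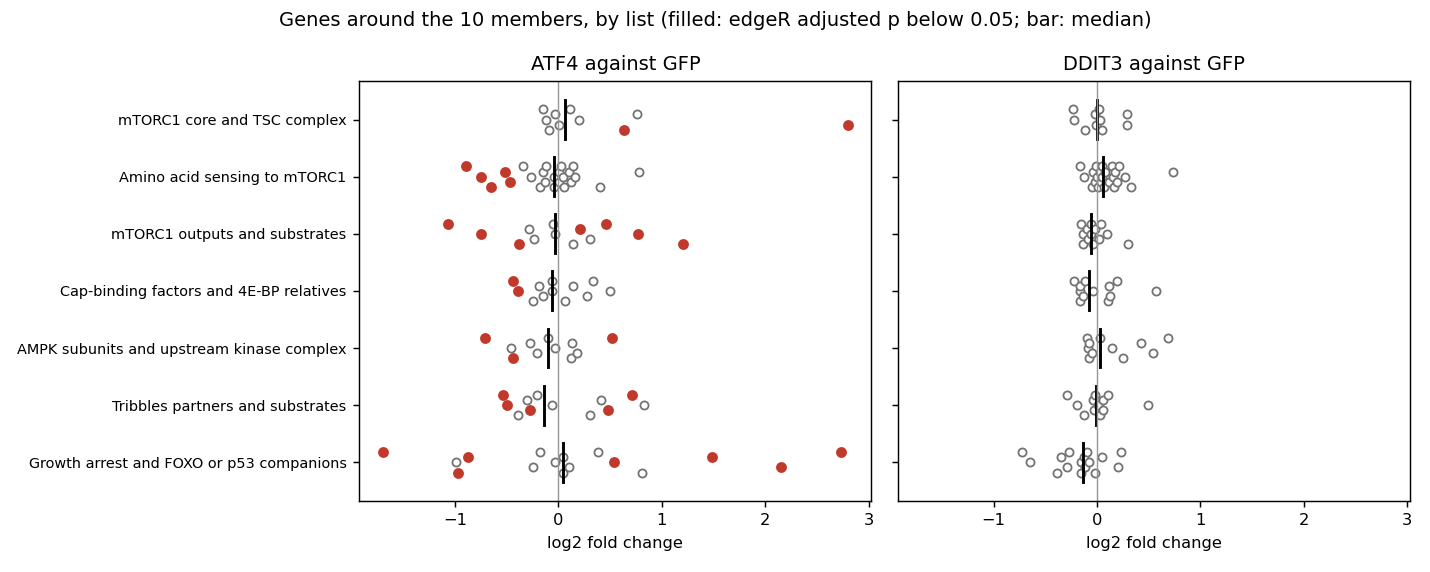
Log2 fold change of each tested gene in the 7 pathway lists, in ATF4 against GFP and in DDIT3 against GFP, with filled points for an adjusted p under 0.05 (edgeR) and a bar at each list's median. Filled points lie on both sides of 0 in ATF4 against GFP, where 13 genes are higher and 18 lower, and none is filled in DDIT3 against GFP.

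Within mTORC1 and the TSC complex, 2 of 10 genes were higher and 0 lower in ATF4 against GFP (median 0.06). Deptor, an inhibitor of mTOR, averaged 55.8 CPM in ATF4 libraries against 7.96 CPM in GFP libraries (log2 fold change 2.80 ± 0.18, adjusted p = 6.5e-10, edgeR). Rheb, the GTPase that activates mTORC1, averaged 175 CPM in ATF4 libraries against 113 CPM in GFP libraries (0.64 ± 0.12, adjusted p = 0.00067). Of 24 genes that carry amino acid signals to mTORC1, 0 were higher and 5 lower (median -0.04). Gatsl2, an older symbol of Castor2, a CASTOR family member, averaged 27.6 CPM in ATF4 libraries against 51.4 CPM in GFP libraries (-0.90 ± 0.15, adjusted p = 1.4e-04). B630005N14Rik, matched to Bmt2, the S-adenosylmethionine sensor SAMTOR, changed by -0.47 ± 0.13 (adjusted p = 0.00883), and the Rag GTPase gene Rragb averaged 2.27 CPM in ATF4 libraries against 3.83 CPM in GFP libraries (-0.75 ± 0.23, adjusted p = 0.02003).

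Among 13 outputs and substrates of mTORC1, 4 were higher and 3 lower (median -0.04). Grb10, an adaptor that restrains insulin signalling, averaged 453 CPM in ATF4 libraries against 196 CPM in GFP libraries (1.21 ± 0.15, adjusted p = 8.8e-06, edgeR). Tfe3, a transcription factor of lysosomal genes, changed by 0.77 ± 0.13 (adjusted p = 0.00019), and Lpin1, the phosphatidate phosphatase lipin 1, averaged 167 CPM in ATF4 libraries against 348 CPM in GFP libraries (-1.06 ± 0.20, adjusted p = 0.00048). Of 12 cap-binding factors and relatives of 4E-BP1, 0 were higher and 2 lower (median -0.06). Both lower genes encode cap-binding proteins. Eif4e, which encodes the protein that 4E-BP1 binds, averaged 87.0 CPM in ATF4 libraries against 118 CPM in GFP libraries (-0.44 ± 0.12, adjusted p = 0.00996), and Eif4e3 changed by -0.39 ± 0.08 (adjusted p = 0.00136).

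Of 11 AMPK subunits and upstream kinase components, 1 was higher and 2 lower (median -0.10), with Cab39, a partner of the kinase LKB1, at 0.52 ± 0.13 (adjusted p = 0.00449, edgeR) and the regulatory subunits Prkag2 at -0.44 ± 0.12 (adjusted p = 0.0118) and Prkag3 at -0.71 ± 0.23 (adjusted p = 0.0259). Of 12 tested tribbles partners and substrates, 2 were higher and 3 lower (median -0.14). Stk40, a tribbles-related pseudokinase, averaged 163 CPM in ATF4 libraries against 99.6 CPM in GFP libraries (0.71 ± 0.13, adjusted p = 0.00047). The MAP kinase kinases Map2k1 (0.48 ± 0.12, adjusted p = 0.0045) and Map2k4 (-0.50 ± 0.12, adjusted p = 0.00359) differed in opposite directions. Of 16 tested growth arrest genes and companions of FOXO or p53, 4 were higher and 3 lower (median 0.05). Gadd45a, a stress gene of growth arrest, averaged 90.05 CPM in ATF4 libraries against 13.5 CPM in GFP libraries (2.73 ± 0.20, adjusted p = 7.3e-09). Gadd45b (-1.70 ± 0.39, adjusted p = 0.00302, edgeR) and Gadd45g (-0.97 ± 0.29, adjusted p = 0.0162) of the same list were lower. The cell cycle inhibitor gene Cdkn1a averaged 199 CPM in ATF4 libraries against 44.9 CPM in GFP libraries (2.15 ± 0.37, adjusted p = 0.00035), and Ccng1, which encodes cyclin G1 and is a known p53 target, averaged 849 CPM in ATF4 libraries against 1552 CPM in GFP libraries (-0.87 ± 0.20, adjusted p = 0.00289).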

How the data were processed

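The authors deposited whole-number read counts per gene for 15 libraries and a gene length column (other unit), made per the submitters' processing notes with STAR and featureCounts on mm10 (their versions are not given in the sources used). Per the labels' extract protocol, polyA RNA of all 15 libraries went through SMART-Seq v4 and then Nextera XT library preparation, while the sample descriptions name SMART-Seq2 for 14 libraries and SMART-Seq3 for GFP replicate 5. Per the file headers, the authors' deposited comparison tables hold a mean signal, a log2 fold change and its standard error, a test score and p-values; they are used only where named. Counts were tested with edgeR 4.0.16 (R 4.3.3; filterByExpr, TMM factors, glmQLFit with robust = TRUE) with all 15 libraries fitted at once and the vector group as sole factor (12 residual degrees of freedom, biological coefficient of variation 19.6%). The filter removed 11523 genes. DESeq2 1.42.0 was an alternative. Libraries of a group were not copies (chi-square per degree of freedom 8.60 to 50.4). P-values reflect only how these samples vary, which may be technical, since no label ties them to separate animals. Intervals of read ratios cover counting error only. The kit does not mark strand, and no annotated gene shared exon bases with a member.

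The members, lists and tests were chosen with earlier results of these data known. Text names all members, up to 3 called genes of lowest p per list, and the 2 nearest non-member genes per member by r. Gadd45b and Gadd45g were named in addition, beside Gadd45a. Of the list symbols, 8 were matched through RefSeq synonyms. Pairing by replicate number was checked by correlating deviations from group means. All 5 correlations exceeded 0.1 for DDIT3 and GFP (0.205 to 0.511) and for ATF4 and DDIT3 (0.135 to 0.497). The labels leave the meaning of these numbers unstated, so the main fit has no block. Its intervals and p-values therefore leave such a pairing out, and the replicate block is given as an alternative. With the replicate block 322 genes were called in DDIT3 against GFP, against 102 without it, and none of the 10 members was among them. For ATF4 and GFP 4 of 5 exceeded 0.1 (0.0783 to 0.386).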

Additional observations from a re-analysis of the deposited data

How the results depend on the processing

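Each member was refitted under 22 alternatives, giving 659 values (Nupr1 in DDIT3 against GFP was not tested when only those groups were fitted) with 607 unchanged in direction and call. Trib3, Sesn2 and Eif4ebp1 were called in all 22 for ATF4 against GFP and for ATF4 against DDIT3, as was Nupr1, whose passing of the filter fixed its call. Members called, Nupr1 included, numbered 4 to 7 for ATF4 against GFP, 4 to 6 for ATF4 against DDIT3 and 0 for DDIT3 against GFP. The 7 were called with the replicate block, where 43.1% of all genes were called in ATF4 against GFP, against 32.2% in the main fit. All genes called in ATF4 against GFP numbered 2972 (male libraries) to 5097 (replicate block), against 3801 in the main fit. In ATF4 against DDIT3 the replicate block called 44.3% of all genes, against 33.8% in the main fit. Genes called in DDIT3 against GFP numbered 102, against 223 by DESeq2, 322 with the replicate block and 55 to 146 when 1 library was left out (55 without DDIT3 replicate 1, 146 without ATF4 replicate 2). In ATF4 against GFP 4 of 5 same-number correlations exceeded 0.1, and 8 of 10 libraries correlated best with their own number, as in ATF4 against DDIT3. Between DDIT3 and GFP libraries 10 of 10 correlated best with their own number. In ATF4 against GFP the replicate block brought Sesn1 (-0.41, adjusted p = 0.00157) and Ddit4l (-0.98, adjusted p = 0.0237) past the threshold of the edgeR test.

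Signs turned only for values called in neither setting, and the cause was not tested. In ATF4 against GFP, Trib1 was 0.000484 in male libraries and 0.0421 without ATF4 and DDIT3 replicates 2. Between DDIT3 and GFP libraries, Ddit4 was -0.0567 with the replicate block, -0.555 in male libraries and -0.342 without ATF4 and DDIT3 replicates 2, and Eif4ebp1 was -0.150 in male libraries. Leaving out 1 library gave ranges of -0.178 to 0.120 (Trib1) in ATF4 against GFP. For DDIT3 against GFP they were -0.269 to 0.0286 (Trib1), -0.226 to 0.198 (Trib3), -0.194 to 0.122 (Sesn1), -0.0723 to 0.0889 (Sesn2) and -0.342 to 0.460 (Ddit4). In ATF4 against DDIT3 they were -0.0170 to 0.193 (Trib1) and -0.254 to 0.110 (Ddit4l). Depth limits Nupr1 and Trib3 in DDIT3 and GFP libraries, and Ddit4l and Sesn3 in all groups.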

Other observations

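The replicate number recurred in the order of some members, although no label says what it marks. Replicates 2 and 1 were the highest of their group in all 3 groups for Eif4ebp1 and Sesn1, which are 2 of the 10 members. The same number was lowest in all 3 groups for Trib1 (replicate 2) and Ddit4l (replicate 5), also 2 of the 10. Ddit4l had only 6, 8 and 4 reads in replicate 5 of the ATF4, DDIT3 and GFP groups. How common such orders are over all genes was not counted. Ddit4 showed no such order. Its lowest DDIT3 library was replicate 3 at 3.26 CPM, where ATF4 replicate 3 had 42.0 CPM and GFP replicate 3 had 26.2 CPM.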
